A study of Glycine max with 24 samples.

Results

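A group of 59 soybean transcripts climbed at each step of the cotyledon time course while their stage means in leaf stayed within a narrow range. They came from 58 loci and were picked from the 73320 transcripts of the deposited tables. The choice used the deposited log2 values, averaged over the 3 replicates of a stage. A transcript was taken when the cotyledon mean at C-II exceeded that at C-I by at least 1.5, the mean at C-III exceeded that at C-II by at least 1.5, and the replicates of neighbouring stages did not overlap. In the leaf table the highest and lowest of the 5 stage means had to lie less than 1.5 apart. The cotyledon part of this rule was met by 440 transcripts, of which 13.4% met the leaf part as well. The cotyledon steps and the leaf range of the members are therefore a description of how they were chosen.

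The plants were of the cultivar Williams 82, grown under a daily cycle of 12 h light and 12 h dark without any treatment. C-I cotyledons were taken 4 days after planting, when green and still closed, C-II cotyledons at 15 days, when open and green, and C-III cotyledons at 27 days, when they began to yellow. C-I seedlings were raised on culture medium in closed boxes and the other plants in soil mix, so growth condition and stage cannot be told apart in the first step. The leaf samples were single trifoliates of the fourth node, from opening at the V3 stage (L-I) to yellowing (L-V), and each stage of either organ had 3 libraries. The labels place L-II to L-V at 2, 4, 6 and 7 weeks after V3, whereas the methods of the study give other intervals, so the leaf stages are used here only by their order.

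Soybean cotyledons are storage organs that turn green on emergence, photosynthesise for a while, export their reserves to the seedling and are then shed. Trifoliate leaves pass through expansion, photosynthesis and senescence. NAC proteins are a plant-specific family of transcription factors, several of which drive leaf senescence in Arabidopsis. BEL1-like homeodomain proteins are transcription factors that act as partners of KNOX homeodomain proteins, and nitrate transporters of the NRT1 family move nitrate across membranes. An annotation was given for 3 of the 59 members in the sources used here, 1 of each of these kinds. The other 56 are named only by their identifiers, and no sequence or map position of any member was at hand beyond the chromosome number that the identifier carries.

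Reads that matched a single transcript numbered between 2163050 and 20839594 per cotyledon library and between 1852184 and 6887154 per leaf library. Within a stage the mean correlation of a library's log2 values with its replicates was 0.920 to 0.963 in cotyledon and 0.862 to 0.954 in leaf. No cotyledon library stood closer to another stage, but 3 leaf libraries did, replicate 2 of L-III and replicates 2 and 3 of L-V, each to a library of L-IV. The transcripts of the photosynthesis list, 242 in all, took 6.30%, 3.89% and 0.934% of the reads at C-I, C-II and C-III. In leaf they took 9.41% at L-I and 1.73% at L-V. The study had placed the genes of this list in a leaf profile that falls at late stages of these same libraries. Their fall in leaf was therefore set by that choice. In cotyledon the yellowing stage carried less of this RNA. Its part in the rise of the members was not tested. No gene annotated as a seed storage protein was found in the sheets used, and that check of the cotyledon label was not made. In whole organs, fewer cells of a type and less RNA per cell cannot be told apart.

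In the cotyledon the 59 members had their lowest levels at C-I, from no read to a mean of 33.9 normalized counts, and were higher at each later stage. Levels are given below as normalized counts, which are reads scaled for library size within a tissue. They are not divided by transcript length, so an order of members by them is one of read counts. At C-I the median of the members' stage means was 1.29, at C-II 23.7 and at C-III 165, and the highest mean at each stage was 33.9, 409 and 1253. At C-III the mean was at least 100 in 38 members and at least 1000 in 2. On the deposited log2 scale the first step had a median of 2.20 and a maximum of 4.83, and the second a median of 2.09 and a maximum of 4.66, against medians of -0.06 and 0.01 over all transcripts tested. The first step was the larger in 37 members and the second in 22.

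Very few reads stood behind many of the C-I levels. Over the 3 C-I libraries together 9 members had no read, 16 had 1 to 3 reads and 34 had more than 3. For the 34, the ratio of the C-III to the C-I mean ran from 10.8 to 496 with a median of 26.9. Their median ratio was 7.00 for C-II over C-I and 3.94 for C-III over C-II. Where no C-I read was found, the ratio was set against 3 reads per library, a mean of 4.27 normalized counts, and is a lower bound. Among these, Glyma13g03790.3 was at least 47.2-fold higher at C-III and Glyma02g44840.1 at least 44.2-fold higher.

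Transcripts that reached 10 reads in the sum of a stage's replicates were fitted with limma on log2(normalized count + 1) and called when the Benjamini-Hochberg adjusted p was below 0.05 and the log2 fold change beyond 1.5. All 59 members were called higher at C-II than at C-I, where 11.6% of the 53357 transcripts tested were so called and 13.8% were called lower. With a pseudocount of 5 in place of 1, 34 of the 59 were called. At C-III against C-II 54 members were called higher against a background of 3.65%, with 4.93% called lower, and the same 54 were called at both steps against 0.913%. These contrasts are those of the rule, and nothing is read from the counts. The photosynthesis list, with 242 transcripts tested and no member, had 7 called higher and 94 lower at the first step. At the second 165 were called lower and none higher by limma, with 1 higher at an unadjusted p below 0.05. The 5 members not called at the second step were Glyma01g24360.1, Glyma03g40820.1, Glyma05g04230.1, Glyma09g11663.1 and Glyma13g02000.1.

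**Figure D1:**
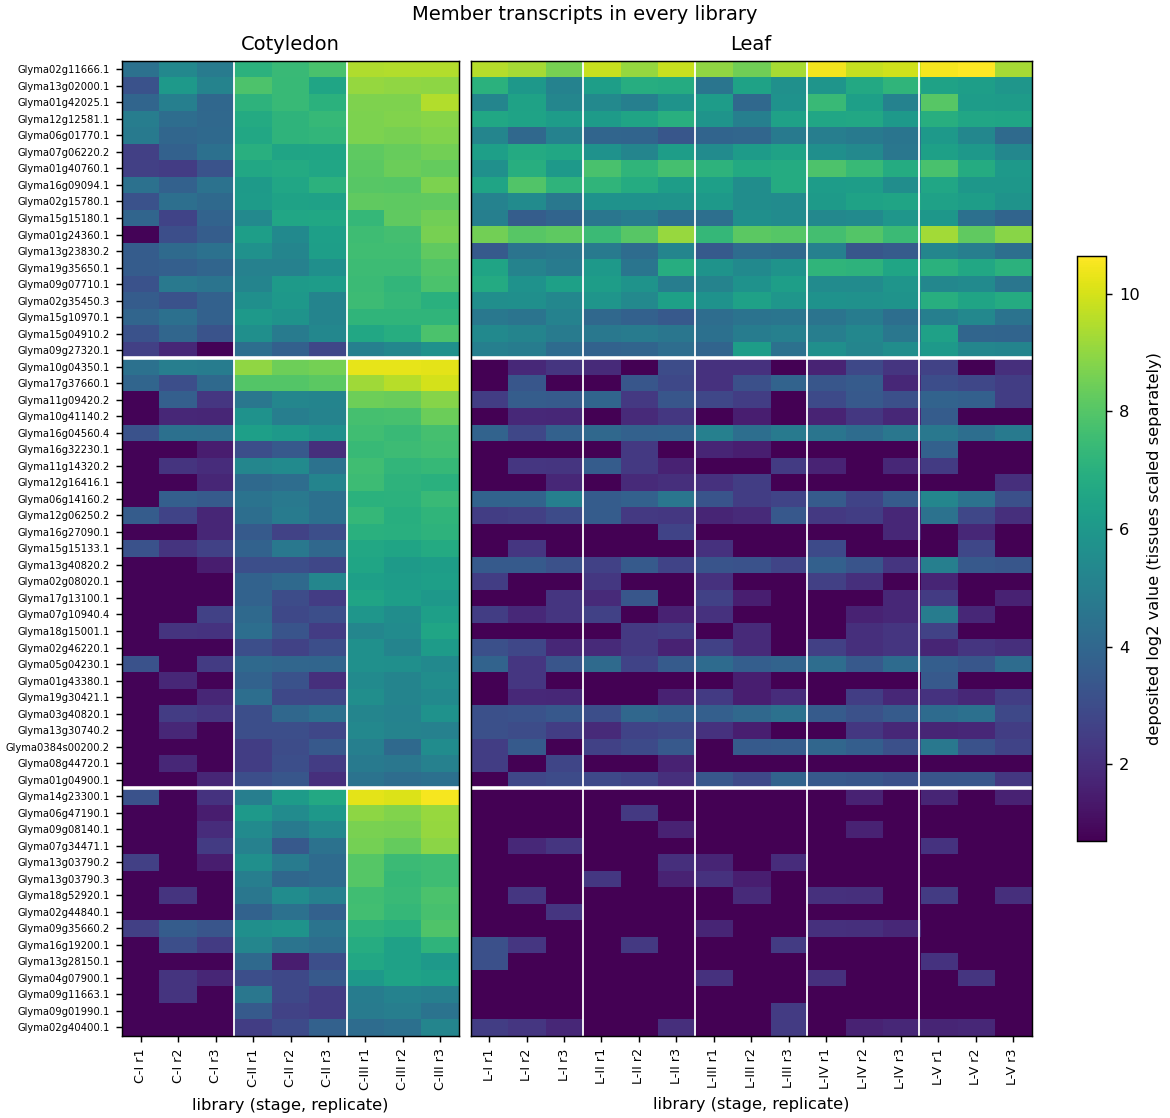
Deposited log2 value of each of the 59 members (rows) in the 9 cotyledon and 15 leaf libraries (columns), with white lines between stages and between 3 groups of leaf level. The colour brightens from C-I to C-III in every row, whereas the leaf columns show differing levels with no such common order in the upper 18 rows and stay at or near the lowest value in the bottom 15.

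The members near the limits of the rule differed little from transcripts just outside. For the first step, Glyma19g35650.1 at 1.51 and Glyma15g15133.1 at 1.52 lay inside, and Glyma19g30450.1 at 1.499 and Glyma02g38580.1 at 1.49 lay outside. For the second step, Glyma15g10970.1 and Glyma02g40400.1 stood at 1.52, and Glyma20g26270.3 at 1.499 and Glyma18g50180.1 at 1.48 fell short. For the leaf range, Glyma09g27320.1 at 1.48 and Glyma01g42025.1 at 1.46 were within the limit, and Glyma09g04180.1 at 1.504 and Glyma07g36430.2 at 1.509 were over it. Within 0.1 of the leaf limit lay 8 members and 13 transcripts that met the other conditions.

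**Figure D2:**
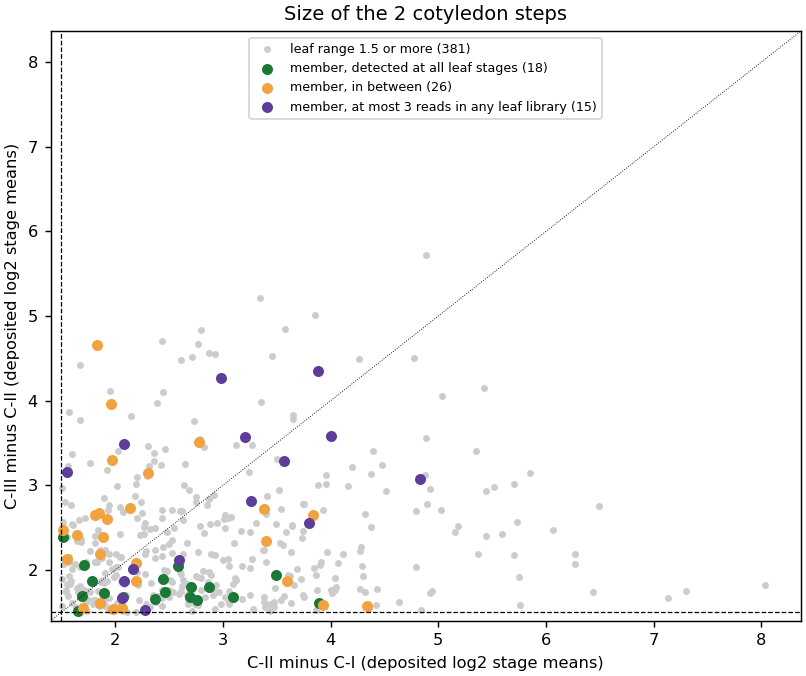
Second cotyledon step (C-III minus C-II) against the first (C-II minus C-I) in deposited log2 stage means for the 440 transcripts that met the cotyledon part of the rule. Dashed lines mark the limit of 1.5, the dotted line marks equal steps, and of the 18 members detected at all leaf stages 15 lie below it.

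The annotated NAC member was Glyma10g04350.1, given as NAC domain containing protein 74. Its normalized counts were 17.9, 27.2 and 25.7 in the C-I libraries and 509, 343 and 375 at C-II. At C-III they were 1229, 1226 and 1198, a mean of 1218 ± 17.1 (SD, n = 3). The stages did not overlap, as the rule required, and the libraries of C-III were closely alike. The means differed 17.3-fold between C-I and C-II and 2.98-fold between C-II and C-III, so by ratio the first step was the larger. At C-III only one other member had a higher normalized count. The second step was near the fold limit of the call, and without C-II replicate 2 its log2 fold change was 1.48, under that limit.

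In leaf the same NAC transcript was barely seen. The stage means were 1.01 ± 0.987, 2.09 ± 2.71, 1.13 ± 0.982, 2.40 ± 1.86 and 1.68 ± 1.79 normalized counts from L-I to L-V (SD, n = 3), resting on 31 reads in 15 libraries. The highest library, L-II replicate 3, had 5.15 normalized counts and 4 libraries had no read. No order of the leaf stages can be read from such values, and the transcript was too rare to be tested in leaf. At this depth a leaf change among so few reads was not detectable.

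The study's list of NAC genes holds this member. Of the list's 226 transcripts, 118 were tested in cotyledon, and 44 rose and 5 fell in the limma fit at the first step. Those that rose are 37.3% of the transcripts tested, against 11.6% of all transcripts. At the second step 27 rose, which is 22.9% against 3.65%, and 1 fell. At both steps 15 rose, which is 12.7% against 0.913%. The median log2 fold change of the list was 1.16 at the first step and 0.50 at the second, against -0.07 and 0.01 over all transcripts tested. The study drew the list from genome annotations, because the family was already known to take part in senescence and defence. No conclusion on a direction of the family is drawn from these counts. By the rule on stage means, 14 NAC transcripts of 13 genes met the cotyledon part. In the 13 other than the member the leaf mean at L-V was above that at L-I. The difference on the deposited log2 scale was 1.56 to 9.31 for these 13, with a median of 3.94. For the member it was 0.22, on too few leaf reads to give an order.

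Single relatives are given as examples, and no rule set beforehand chose them. Glyma16g26740.1, annotated as NAC domain containing protein 47, had cotyledon means of 27.2, 422 and 2269 normalized counts, where the member had 23.6, 409 and 1218, and its leaf means were 0.33 at L-I and 1473 ± 827 at L-V. Glyma06g38410.1, annotated only as a member of the NAC family, had cotyledon means of 29.1, 322 and 2181, and its leaf means were 32.9 at L-I and 4461 ± 4259 at L-V. The leaf ranges of these relatives were 9.31 and 6.61, and the replicates of L-V were widely spread in both. Glyma08g47520.1 and Glyma08g47520.2, annotated as NAC domain containing protein 83, had leaf ranges of 1.67 and 1.56, near the limit. Their leaf means were 7.95 and 33.0 at L-I and 34.0 and 109 at L-V. The leaf range was a condition of membership, so that the member differs from the other 13 in leaf follows from its choice.

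**Figure D3:**
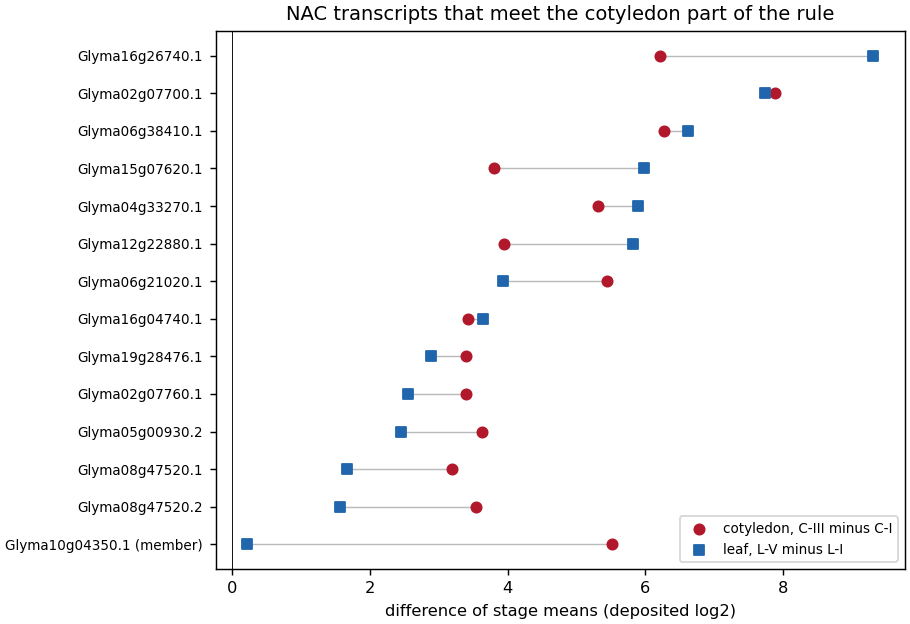
Difference of stage means on the deposited log2 scale for the 14 NAC transcripts that met the cotyledon part of the rule, in cotyledon (circles, C-III minus C-I) and leaf (squares, L-V minus L-I). The member Glyma10g04350.1 has the square nearest to 0, at 0.22, and the other 13 squares lie between 1.56 and 9.31.

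The annotated homeodomain member was Glyma02g35450.3, given as BEL1-like homeodomain 1. The normalized counts were 8.96, 6.15 and 10.4 at C-I, 46.3, 60.3 and 33.2 at C-II and 179, 159 and 124 at C-III. The stage means were 8.51 ± 2.18, 46.6 ± 13.6 and 154 ± 27.5 (SD, n = 3). The groups were separate at both steps, as the rule required of every member. Each step was several times the spread of the replicates, and the rule had set a least step.

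This transcript was plainly present in leaf. Its leaf means were 43.0 ± 5.68, 57.9 ± 20.7, 62.8 ± 15.0, 51.8 ± 1.41 and 105 ± 16.1 normalized counts from L-I to L-V. The middle stages overlapped one another, and the L-V libraries, at 118, 87.4 and 110, all lay above every library of the other stages, of which the highest had 79.8. The narrow range by the rule, 1.23, thus still held a separation of L-V from the earlier stages. The log2 fold change of L-V over L-I was 1.27 ± 0.29 (SE) in the limma fit, under the fold limit of 1.5.

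The locus has 3 transcripts in the tables, counted by the reads that match only 1 of them. Glyma02g35450.1 had cotyledon means of 7.38, 67.1 and 232 normalized counts and was called higher at both steps, with limma log2 fold changes of 3.12 and 1.80. Its leaf range was 1.55, just over the limit, with a mean of 52.5 at L-I and 161 at L-V. Glyma02g35450.2 had 3.45, 49.5 and 116 in cotyledon and was called at the first step alone. The 3 transcripts thus followed similar courses, and the limits of the rule fell between them.

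The annotated transport gene among the members was Glyma01g04900.1, given as nitrate transporter 1:2. Its normalized count at C-III was the lowest of all members. The normalized counts were 0, 0 and 0.80 at C-I, 5.44, 6.98 and 1.33 at C-II and 18.9, 15.8 and 17.5 at C-III. These rested on 2 reads at C-I, and the ratio of C-III to C-I, 65.2, has a 95% counting interval of 17.5 to 547. The interval covers counting error only. The lowest C-II library was a single read, and C-III stood clear of both earlier stages, as the rule required. The call of the second step was lost without C-II replicate 3, at a log2 fold change of 1.36, and without each C-III replicate in turn, at 1.84 to 1.96. That of the first step was lost without C-II replicate 2, at 1.67.

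In leaf the nitrate transporter had means of 3.04 ± 2.66, 3.18 ± 1.55, 7.93 ± 3.55, 7.10 ± 1.09 and 5.51 ± 2.87 normalized counts from L-I to L-V, on 88 reads. Most stages overlapped. The lowest L-IV library, at 5.90, was above the highest libraries of L-I and L-II, at 4.93 and 4.49, and the lowest of L-III, at 4.56, was just above those of L-II. The second transcript of the locus, Glyma01g04900.2, was rarer, with 8.13 ± 1.67 at C-III, and was called at neither step. On the nitrate transporter list of the study, 29 transcripts were tested in cotyledon. At the first step 8 rose and 6 fell, at the second 6 rose and 1 fell, and 3 rose at both. The shares that rose were 27.6% and 20.7%, against 11.6% and 3.65% of all transcripts.

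Another pair of nitrate carriers met the cotyledon part of the rule but not the leaf part, so their wider leaf range follows from the rule. Glyma01g40850.1, nitrate transporter 1.5, had no read at C-I and means of 16.2 and 52.0 normalized counts at C-II and C-III, with a leaf range of 2.40. Its leaf stage means were low, from 0 at L-I to 5.79 at L-IV and 4.67 at L-V. Glyma08g39140.1, nitrate transporter 2.5, had 0.27, 9.49 and 42.1 in cotyledon and leaf means of 0.33 at L-I and 135 ± 70.9 at L-V. The other transporter lists held no member. Of 9 ammonium transporter transcripts tested, 5 rose at the first step and 1 rose and 1 fell at the second. Of 37 for sulfate, 19 rose and 2 fell at the first step and 5 rose at the second, and of 44 for phosphate 11 rose and 3 fell at the first and 1 rose at the second. Of 66 for potassium, 14 rose and 6 fell at the first step and 3 rose and 2 fell at the second. The senescence-associated homologs held no member either. Of their 148 transcripts tested, 30 rose and 27 fell at the first step, and 14 rose and 7 fell at the second. The shares that rose at the first step were 55.6% for ammonium, 51.4% for sulfate, 25.0% for phosphate, 21.2% for potassium and 20.3% for the senescence-associated homologs, against 11.6% of all transcripts. At the second they were 11.1%, 13.5%, 2.27%, 4.55% and 9.46%, against 3.65%.

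**Figure D4:**
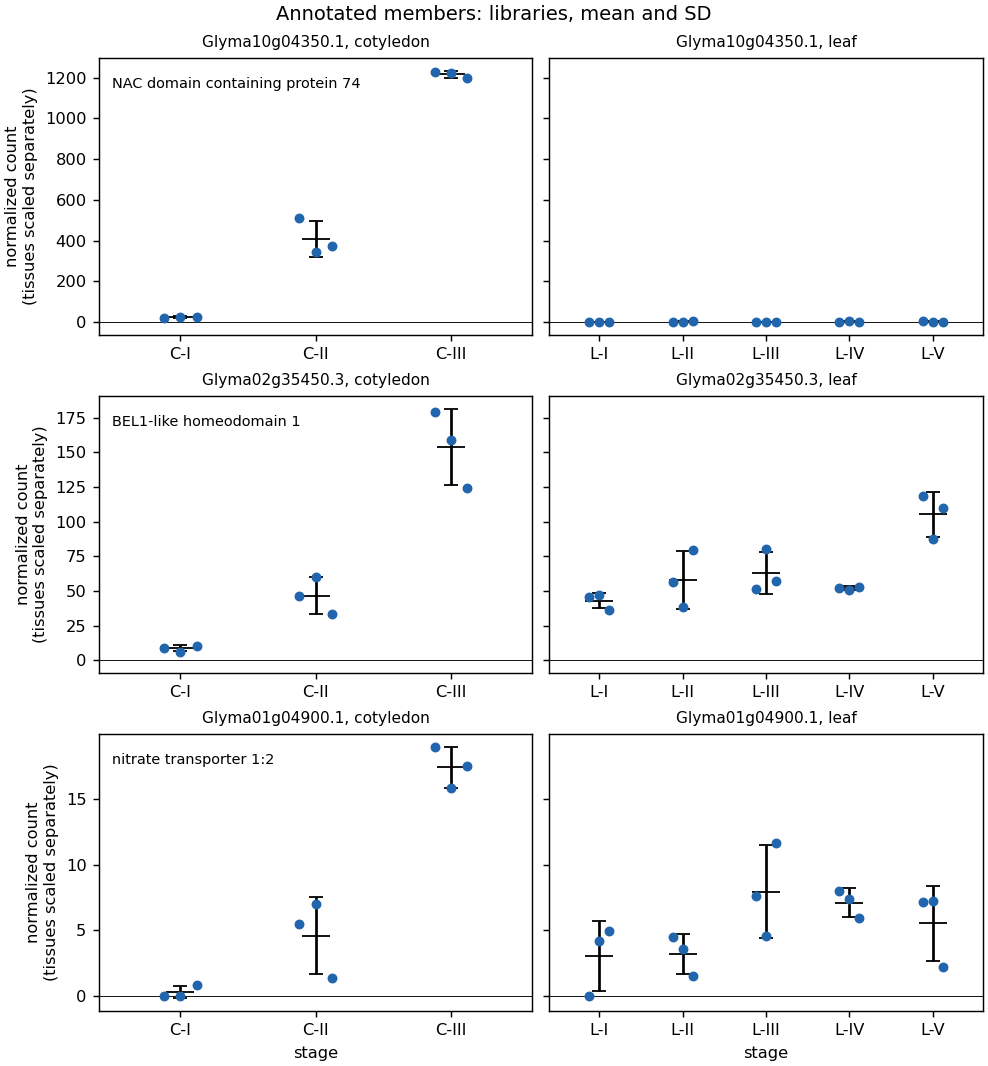
Normalized counts of the 3 annotated members in each library (points) with the mean and SD of 3 replicates (bars), by cotyledon stage at left and leaf stage at right; the tissues were scaled separately. Glyma10g04350.1 reached 1218 at C-III and at most 2.40 as a leaf stage mean, Glyma02g35450.3 had 105 at L-V against 43.0 at L-I, and Glyma01g04900.1 stayed under 20 throughout.

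The narrow leaf range covered quite different leaf levels, which the rule did not use. In 18 members every leaf stage mean was at least 10 normalized counts. In 15 members, of 14 loci, no leaf library had more than 3 reads, and 26 members lay in between. Of the transcripts that met the cotyledon part of the rule and had at most 3 reads in each leaf library, 15 had a leaf range under 1.5 and 1 had not. Over all transcripts of the tables, 68.7% had a leaf range under 1.5, and of those tested in leaf 57.5%.

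The 18 members detected at all leaf stages had leaf means over the 15 libraries of 19.2 to 833 normalized counts, with a median of 62.4. Between their highest and lowest leaf stage means the ratio was 1.53 to 3.63 with a median of 2.46. On the deposited scale their leaf range was 0.45 to 1.48, which was 0.656 to 4.49 times the pooled SD of the leaf replicates with a median of 2.29. The cotyledon rise of the same 18 from C-I to C-III was 4.50 to 20.8 times the SD of the cotyledon replicates. The rule set a least rise in cotyledon and a largest range in leaf, so a gap between the organs follows from the choice. The first cotyledon step was the larger in 15 of the 18. Their C-III means ran from 38.3 to 716.

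The highest C-III mean of the 18 was that of Glyma02g11666.1, whose function was not given in the sources used here. The normalized counts were 17.9, 36.9 and 24.9 at C-I, 133, 169 and 218 at C-II and 701, 722 and 724 at C-III. In leaf the stage means were 578 ± 178, 774 ± 204, 499.9 ± 142, 1085 ± 304 and 1227 ± 522 from L-I to L-V (SD, n = 3). The cotyledon stages were separate, whereas in leaf L-V overlapped every other stage, its replicate 3 having 629.6 against 730.3 in the highest L-I library.

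The smallest leaf range among the 6 members with at least 50 normalized counts at every leaf stage was that of Glyma12g12581.1. Its counts were 26.9, 15.8 and 13.2 at C-I, 106, 139 and 162 at C-II and 409, 429 and 471 at C-III. Its leaf means were 84.1 ± 12.8, 92.6 ± 27.7, 54.7 ± 26.5, 84.1 ± 19.5 and 100.3 ± 15.0 from L-I to L-V. The lowest leaf stage, L-III, overlapped with L-I, L-II and L-IV and lay under all libraries of L-V. From C-I to C-III the mean went up 23.4-fold while the leaf stage means lay within 1.83-fold, a difference that the rule selects.

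Glyma01g24360.1 was well detected from the youngest leaf on. Its cotyledon counts were 0, 5.27 and 9.23 at C-I, 73.5, 39.0 and 77.0 at C-II and 184, 202 and 384 at C-III. The leaf means were 304 ± 50.4, 329 ± 191, 231 ± 64.5, 209 ± 38.9 and 456 ± 158. All 15 leaf libraries had 157 or more, while the 9 cotyledon libraries ran from 0 to 384. The tissues were scaled separately, so these levels stand side by side without a comparison. The second step missed the adjusted p limit, and passed it without C-I replicate 1 or without C-I replicate 3, at the same log2 fold change of 1.99.

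Glyma13g02000.1 had the highest C-I mean of all members and a wide spread there, with 5.97, 64.2 and 31.7 normalized counts. It had 229, 164 and 90.3 at C-II and 535, 503 and 493 at C-III. In leaf its 15 libraries ran from 20.3 to 142, and the L-I libraries alone, at 131, 60.6 and 31.6, spanned most of that range. The second step of this transcript missed the adjusted p limit as well, and passed it without C-I replicate 1 or 2 at an unchanged log2 fold change of 1.76.

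Glyma16g09094.1 was one of 4 of the 18 that were lower at L-V than at L-I. The cotyledon means of this transcript were 15.6 ± 4.42, 96.4 ± 33.3 and 307 ± 85.2. Its leaf means were 158 ± 80.2, 108 ± 34.8, 76.8 ± 32.7, 62.1 ± 15.6 and 70.6 ± 19.9, and the libraries of L-I, at 88.1, 246 and 140, overlapped with those of L-V. The largest first step of the 18 belonged to Glyma01g40760.1, whose cotyledon means were 4.01 ± 2.09, 98.4 ± 6.93 and 307 ± 29.8. Its leaf level was lowest at L-I, at 77.2 ± 37.2, and highest at L-II, at 188 ± 39.1. The second step of Glyma16g09094.1 fell under the fold limit without C-II replicate 1, at 1.44, or without C-III replicate 3, at 1.47.

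The remaining named members of the 18 were Glyma01g42025.1, Glyma06g01770.1 and Glyma07g06220.2. Their C-III means were 517 ± 167, 405 ± 22.5 and 324 ± 42.8 normalized counts from C-I means of 17.6, 16.6 and 10.3. In leaf Glyma01g42025.1 was highest at L-V, where 1 library at 265 stood above the other two at 69.9 and 68.8. Glyma06g01770.1 was lowest at L-II, at 10.5 ± 2.77, and highest at L-V, at 38.3 ± 24.8. Glyma07g06220.2 was highest at L-I, at 92.3 ± 14.6, and lowest at L-IV, at 35.5 ± 12.7. The second cotyledon step of Glyma06g01770.1 was 1.48, under the fold limit, without C-II replicate 1. That of Glyma07g06220.2 missed the adjusted p limit without C-II replicate 2, at 1.62, or without C-III replicate 3, at 1.61.

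Across the 18, L-V was the highest leaf stage in 9, and the mean at L-V lay above that at L-I in 14 and below it in 4. Among all 59 members L-V lay above L-I in 38, below in 14 and at the same value in 7. The 59 include the members with at most 3 reads in any leaf library. Over all transcripts tested in leaf the median L-I to L-V log2 change was -0.004. It was 0.25 with total recovered reads as the scale and 0.14 with the upper quartile. A count of signs can thus shift with the scale, and no direction is read from these counts. Of the 33 members tested in leaf, the replicates of L-V lay wholly above those of L-I in 5 and wholly below in 2, where 20.1% and 25.8% of all transcripts tested in leaf did so. The rule bounds the difference between L-V and L-I in every member, so a gap to these shares follows from the choice.

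In the limma fit 6 of the 33 were called in at least 1 of the 10 pairs of leaf stages, against 41.4% of all 50940 transcripts tested in leaf. The leaf range was part of the rule, and nothing is read from this difference. The called members were higher late in 4 cases. These were Glyma06g01770.1 at L-V over L-II with a log2 fold change of 1.57, Glyma09g27320.1 at L-IV and L-V over L-II with 1.60 and 1.61, Glyma15g15180.1 at L-IV over L-I with 1.53 and Glyma19g35650.1 at L-IV over L-I with 1.501. Glyma06g14160.2 was lower at L-III than at L-I by a log2 fold change of -1.66, and Glyma13g30740.2 was lower at L-III and L-IV than at L-I, with -1.76 and -1.56. On the deposited scale the leaf ranges of these 6 were 1.41 to 1.48. With a pseudocount of 5, and with limma on the deposited values, none of the 33 was called. In these fits 22 and 21 members had an unadjusted p below 0.05 in some leaf pair, against 21 with a pseudocount of 1. The share of all transcripts at that p is not given, and nothing is read from these numbers. The count of called members was 3 without L-II replicate 1, without L-IV replicate 2 or without L-V replicate 2.

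**Figure D5:**
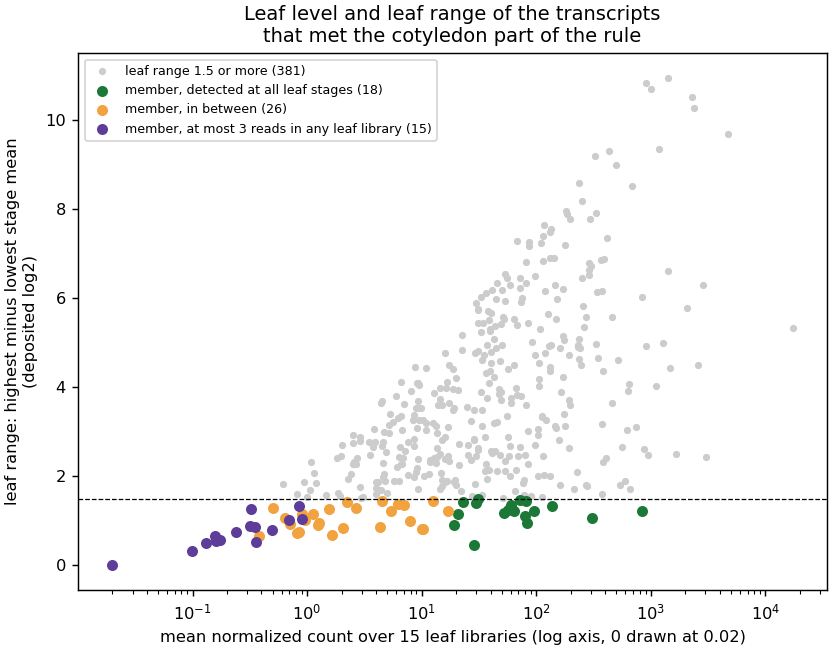
Leaf range on the deposited log2 scale against the mean normalized count over the 15 leaf libraries (log axis) for the 440 transcripts that met the cotyledon part of the rule. The dashed line is the limit of 1.5; members detected at all leaf stages lie at 19.2 to 833 normalized counts, and those with at most 3 reads in any leaf library lie under 1.

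The 15 members at the limit of detection in leaf covered a wide range of cotyledon levels. They had 0 to 13 leaf reads in all, and none was tested in leaf. Glyma09g11663.1 had no read in any leaf library, which allows up to 3 reads per library or 1.71 to 8.52 normalized counts. The C-III means of the 15 were 22.0 to 1253 with a median of 188, against 280.0 for the 18 and 74.7 for the 26. Their median rise from C-I to C-III on the deposited scale was 6.07, against 4.27 for the 18 and 4.52 for the 26, and 5 of the 15 had no read at C-I.

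Glyma14g23300.1 had the highest C-III mean of all members and, on the deposited log2 scale, the largest rise, 8.24. The normalized counts were 5.97, 0 and 1.61 at C-I, 27.2, 68.5 and 99.6 at C-II and 1202, 1112 and 1444 at C-III. The stage means were 2.53 ± 3.09, 65.1 ± 36.3 and 1253 ± 172 (SD, n = 3), a ratio of 496 between the last and the first, which rested on 6 reads at C-I. In leaf 3 reads were found in all, 1 in an L-IV library and 2 in L-V libraries. All 3 C-III libraries were more than 10 times the highest C-II library.

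Glyma06g47190.1 went up most at the first step. It had a single read at C-I, then 62.6, 42.3 and 61.1 normalized counts at C-II and 490.3, 425 and 547 at C-III. The C-II libraries were close together and the C-III libraries were all above them by a wide margin. The ratio of C-III to C-I, 3642, has a counting interval of 653 to 143927 and so says little beyond its lower end. Leaf libraries held 2 reads, both in L-II replicate 2.

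Glyma09g08140.1 and Glyma07g34471.1 had similar courses. The former had means of 0.40, 33.9 ± 8.96 and 440.03 ± 80.5 normalized counts and 2 leaf reads. The latter had 0.80, 18.8 ± 11.1 and 388 ± 86.9 and 5 leaf reads. In both, the stages were separate, as the rule required, and Glyma07g34471.1 had the larger step from C-II to C-III, 4.27 on the deposited scale.

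A pair of members, Glyma13g03790.2 and Glyma13g03790.3, are transcripts of the same locus and not independent. Glyma13g03790.3 had no read at C-I, 27.2, 12.7 and 14.6 normalized counts at C-II and 258, 161 and 185 at C-III. Glyma13g03790.2 had means of 1.13, 28.8 and 207 at the 3 stages. The other transcript of the locus, Glyma13g03790.1, had the most reads, with means of 1.13, 68.4 ± 42.4 and 685 ± 111, and was called higher at both steps. Its leaf range was 1.86 on 18 leaf reads, with 3.44 ± 2.01 at L-II and no read at L-IV and L-V, so it was left out by the leaf part of the rule at a level near the limit of detection. All 3 transcripts of this locus had their leaf reads at L-I to L-III.

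The 26 members in between had leaf means of 0.379 to 16.9 normalized counts, and 15 of them were tested in leaf. Besides the NAC and nitrate transporter members, the highest C-III mean was that of Glyma17g37660.1, chosen for mention after its values were seen. It had 11.9, 5.27 and 13.6 normalized counts at C-I, 248, 247 and 280.2 at C-II and 600.5, 759 and 1026 at C-III, and leaf stage means of 2.44 to 6.34. The step to C-II was its larger one, at 4.34 on the deposited scale against 1.58. In the group as a whole the second step was the larger in 14 and the first in 12.

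Other transcripts of the member loci, which the rule did not take, moved with them in part. There were 23 of these, from 12 loci, and all were tested in cotyledon. In the limma fit 7 were called higher at C-II than at C-I and 15 at C-III than at C-II, or 3 at both steps, Glyma02g35450.1, Glyma13g03790.1 and Glyma13g40820.1. None was called lower at a step, and none was lower with an unadjusted p below 0.05. The first step was positive in 21 and the second in all 23. The leaf range was 1.5 or more in 6. Transcripts of 1 locus share sequence and were counted only by reads unique to each, so the courses of single transcripts rest on parts of the gene.

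The members lay on 19 chromosomes and 1 scaffold, going by the identifiers, with 7 each on chromosomes 2 and 13, 6 on 9, and 5 each on 1 and 16. Of the loci next to a member in identifier order, 112 transcripts were tested, and 4 had both cotyledon steps of at least 1.5, against 0.875% of all transcripts tested. These were Glyma02g40410.1, beside the member Glyma02g40400.1, Glyma09g02000.1, beside Glyma09g01990.1, and Glyma15g15130.1 and Glyma15g15171.1, beside the members Glyma15g15133.1 and Glyma15g15180.1. No test was made of this count.

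The stretch from Glyma15g15130 to Glyma15g15180 on chromosome 15 was looked at further after its values were seen. It holds 8 loci with 1 transcript each in the tables, and 6 of the 8 met the cotyledon part of the rule. The member Glyma15g15133.1 had 5.97, 1.76 and 3.21 normalized counts at C-I, 10.9, 22.6 and 13.3 at C-II and 98.3, 88.3 and 107 at C-III, with 14 leaf reads. The member Glyma15g15180.1 had 11.9, 3.52 and 11.2 at C-I, 38.1, 93.2 and 95.6 at C-II and 156, 291 and 354 at C-III. Both were separate at each step, as the rule required.

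Between and beside these, levels were far higher in places. Glyma15g15130.1, annotated as an uncharacterized protein, went from 298 ± 34.4 at C-I to 2212 ± 271 at C-II and 13106 ± 3286 at C-III. Glyma15g15140.1 had 342, 1277 and 4787, Glyma15g15160.1 had 0.27, 42.6 and 964, and Glyma15g15171.1 had 0.40, 23.5 and 594. In leaf the 4 had ranges of 1.90 to 4.49. Glyma15g15151.1, with 46.6, 107 and 1240.2, and Glyma15g15136.1, with 3.11, 4.14 and 18.0, had a first step under 1.5. Whether reads of one transcript were assigned to its neighbours in this stretch was not tested.

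Against the 381 transcripts that met the cotyledon part of the rule but not the leaf part, the members had a smaller first step, with medians of 2.20 and 2.68, and a like second step, with 2.09 and 2.10. The median C-III mean was 165 in members and 232 in the others. In the others the leaf mean at L-V exceeded that at L-I by at least 1.5 in 266, fell short of it by at least 1.5 in 37 and lay within 1.5 in 78, and L-V was the highest leaf stage in 239. An annotation was given for 95 of the 381 and for 3 of the 59. The annotations came from the study's supplementary sheets, some held only in part, so these counts depend on which genes the sheets list. Only 1 of the 381 had at most 3 reads in every leaf library, against 15 of the 59, and 101 of the 381 had a mean of at least 10 at every leaf stage, against 18 of the 59. The leaf range that separates these sets depends on leaf level, and the shares are given as a description.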

How the data were processed

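RNA from 9 cotyledon and 15 leaf libraries of soybean was sequenced by the authors, with 3 biological replicates per stage. Cotyledon libraries were run on an Illumina Hi-Scan, 3 to a lane, and leaf libraries on an Illumina Hi-Seq. Instrument and organ thus cannot be told apart. The methods do not say which cotyledon libraries shared a lane. The authors aligned reads to the Gmax_189 transcript models with Bowtie, discarded reads that matched more than 1 transcript, scaled counts with DESeq (version 1.0 in the submitters' processing notes) and deposited variance-stabilized log2 values, one table per tissue. The leaf stage numbers of the labels (1, 3, 5, 7 and 8) were read, in order, as the study's stages L-I through L-V.

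Each deposited log2 value was turned back into a normalized count. With e the power of 2 of that value, multiplied by 4, and c the smallest e in the same table, the count is (e - c) squared over 4e. For 1999 transcripts per tissue the result differed from the supplementary normalized counts by a relative gap of at most 4.89e-06. In every library 100% of values were whole multiples, within 0.05, of the worth of 1 read, which gave the reads. Each tissue had its own scaling, so levels were not tested between tissues. Depth limits each library: 3 reads correspond to between 0.833 and 8.96 normalized counts for cotyledon and between 1.71 and 8.52 for leaf.

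Differences were fitted with limma 3.58.1 (R 4.3.3), with an intensity trend, on log2(normalized count + 1), 1 fit per tissue with stage as the only term, with Benjamini-Hochberg adjustment within each comparison. A fold change on this scale understates the change of low transcripts. The other computations used Python 3.11.15, numpy 2.4.6 and pandas 2.3.3. Simulated data with known changes were used to test the fit. The 3 libraries of a stage come from separate plants.

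The members and lists were chosen with earlier results of these data known. Named members were the 8 with the highest C-III mean among those with a mean of at least 10 at all leaf stages, the 5 with the largest rise, the 4 with the smallest leaf range among those with at least 50 at all leaf stages, the annotated members of each list or class, and the 2 on each side of each limit. The lists were the NAC, nitrate, ammonium, sulfate, potassium and phosphate transporter lists, the senescence-associated homologs and the photosynthesis list of the supplementary sheets, from which the annotations (3617 genes) came. Some sheets were held only in part. The sheets' own fold changes and p-values were not used. The gene table of the assembly Glycine_max_v4.0 matched none of the identifiers, so it was not used for names. The alternatives were other limits of the rule, pseudocounts of 0.1 and 5, other filters and scalings, limma on the deposited values, the adjusted p alone, a replicate block and leaving out each library.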

Additional observations from a re-analysis of the deposited data

How the results depend on the processing

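The membership depended on its limits. The rule gave 187 members with cotyledon steps of 1.0 and 19 with steps of 2.0, 26 with a leaf range under 1.0 and 113 under 2.0, 34 on log2(normalized count + 0.1), and 22 where a leaf mean of at least 10 normalized counts was required. With total recovered reads as the scale there were 81 members, which included 44 of the 59, and the median L-I to L-V log2 change of all transcripts tested was 0.25 on this scale (0.14 with the upper quartile, which gave 65 members). Leaving out 1 library at a time gave 52 to 85 members, the most without L-V replicate 1, and kept 48 to 59 of the 59. The members detected at all leaf stages then numbered 14 to 27, the most again without L-V replicate 1.

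Of the calls, those higher at C-II than at C-I numbered 6188 and became 10354 with the adjusted p alone (5554 to 6443 without 1 library), and the members among them went from 59 to 34 with a pseudocount of 5 (56 to 59 without 1 library). Calls higher at C-III than at C-II went from 1948 to 1216 with a pseudocount of 5 and 4091 with the adjusted p alone (1385 to 2100 without 1 library), with 42 to 58 members. Calls in a leaf pair went from 21087 to 13597 with a pseudocount of 5 and 12108 with a mean of at least 10 (18942 to 21785 without 1 library). The members among them went from 6 to 0 with a pseudocount of 5 and to 0 with limma on the deposited values. In these fits 22 and 21 members had an unadjusted p below 0.05, against 21 with a pseudocount of 1. With the adjusted p alone 15 members were called (3 to 8 with both limits and without 1 library). The shares of all transcripts at the unadjusted p and at the adjusted p alone are not given, and nothing is read from these member counts. The cause of these shifts was not tested. Samples that share a replicate number did not deviate together (correlations of -0.08 to 0.07 in cotyledon and -0.20 to 0.20 in leaf), and a fit with the replicate number as a block gave 6199, 1887 and 20758 calls, with 59, 56 and 4 members.

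Of 610 fold changes of named members under alternatives, 584 kept their direction and side of the limits, 16 no longer passed, 10 newly passed and none reversed. The nitrate transporter's second step no longer passed in 8 of them, the replicate block included. Depth limits all values under about 10 normalized counts, which hold most C-I levels and the leaf levels of most members.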
